A study of Mus musculus with 768 samples.

Results

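The transcripts of 9 genes that encode receptors for epidermal growth factor (EGF), fibroblast growth factor 2 (FGF2) and insulin-like growth factor 1 (IGF1), or close relatives of those receptors, were followed in single cells of mouse cochlear organoids. The genes were Egfr, Erbb2, Erbb3, Erbb4, Fgfr1, Fgfr2, Igf1r, Igf2r and Insr, chosen by symbol from the 52636 genes of the tables because all 3 growth factors were in the medium. All 9 were found in both tables and all 9 passed the filter on low counts.

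The starting cells came from the greater epithelial ridge, or GER, which is cochlear epithelium on the inner side of the hair cells. They had been enriched by flow cytometry on postnatal day 2 from mice of the strain Fgfr3-CreERT2/Ai14-tdTomato/Sox2-GFP. Single cells were picked by hand after trypsin treatment on culture day 1, 3 or 7, and sequenced one by one with SmartSeq2, which copies whole transcripts and carries no tags to count molecules. The 3 groups differed in culture time, and also in their split over the 2 tables of the deposit, which is given below. They shared the medium, DMEM/F12 with N-2 and B-27 supplements, ampicillin, EGF at 20 ng/mL, FGF2 at 10 ng/mL, IGF1 at 50 ng/mL, CHIR99021 at 3 µM, valproic acid at 500 µM, 2-phospho-L-ascorbic acid at 100 µg/mL and the TGFβ receptor inhibitor 616452 at 2 µM. No group without the growth factors was analysed here, so the values describe receptor transcripts under constant stimulation and not a response to it. The replicate was the culture, taken from the replicate number of the labels, with 3 cultures on day 1, 3 on day 3 and 5 on day 7. Nothing in the labels says whether these were separate mice or dishes, so p-values measure the spread between these cultures, which may be technical in part.

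The EGF receptor family acts in pairs. EGFR binds EGF, ERBB2 has no known ligand of its own and serves as a partner, ERBB3 binds neuregulins but has little kinase activity, and ERBB4 binds neuregulins and has an active kinase. FGFR1 and FGFR2 bind FGFs together with heparan sulfate chains and are both used in inner ear development. IGF1R is the kinase that IGF1 and IGF2 activate, INSR is the insulin receptor and can form hybrids with IGF1R, and IGF2R is a receptor without a kinase that carries IGF2 and mannose 6-phosphate proteins to lysosomes.

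After filtering, 92.6% of the cells were retained, and 57 were removed. A culture kept 43 to 86 cells on day 1, 70 to 85 on day 3 and 37 to 78 on day 7. Summed reads per culture ran from 26391412 to 65109518 on day 1, from 53068566 to 61160322 on day 3 and from 31839626 to 72483565 on day 7. The epithelial identity of the cells was checked with markers: 99.7% of retained cells had a read of Epcam or Cdh1, and 99.4% had a read of Tecta, a tectorial membrane gene of the GER. The endothelial genes Pecam1 and Kdr, the melanocyte genes Dct, Mlana and Tyr, and the Schwann cell genes Foxd3 and Cdh19 were at 0 in every culture. Fgfr3, the gene named in the strain, had a read in 42 cells. The cells were deposited in 2 tables. Culture 1 of day 1, culture 1 of day 3 and all day 7 cultures but culture 5 were in the first, and the other 5 cultures were in the second. Cells with a read in at least 3 of 6 cell cycle genes, called cycling here, made up 15.3% to 23.7% of cells on day 1, 52.8% to 63.6% on day 3 and 25.3% to 86.96% on day 7.

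Levels of different genes were compared as counts per 1000000 reads (CPM) per kilobase of annotated exon. Over the 11 cultures Erbb2 was highest on that scale at 10.1 ± 2.06 CPM per kb (SD, n = 11), followed by Igf2r at 7.71 ± 3.48 and Fgfr1 at 5.95 ± 1.95. Erbb3 at 2.86 ± 1.57, Igf1r at 2.75 ± 1.46 and Insr at 2.25 ± 0.837 formed a middle set. Egfr, the receptor for the EGF of the medium, was at 0.800 ± 0.399, and Fgfr2 at 0.223 ± 0.611 and Erbb4 at 0.0442 ± 0.0821 were lowest.

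Most neighbours in this order differed by less than the spread of their difference between cultures. That spread, an SD over cultures, is not an error of the mean. Levels of different genes were not tested against each other. Within cultures, the mean difference to the next gene was smaller than its SD for Erbb2 and Igf2r, Igf2r and Fgfr1, Erbb3 and Igf1r, Igf1r and Insr, and Fgfr2 and Erbb4. It was larger than its SD in 3 places, from Fgfr1 to Erbb3 (3.09 ± 2.67 CPM per kb, higher in 10 of 11 cultures), from Insr to Egfr (1.45 ± 0.932, higher in 11 of 11) and from Egfr to Fgfr2 (0.577 ± 0.497, higher in 10 of 11). The length used mattered for Fgfr1, which has many annotated transcripts: divided by its longest transcript it was first at 11.7 CPM per kb, and 3 of the 9 genes kept their place in the order.

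**Figure D1:**
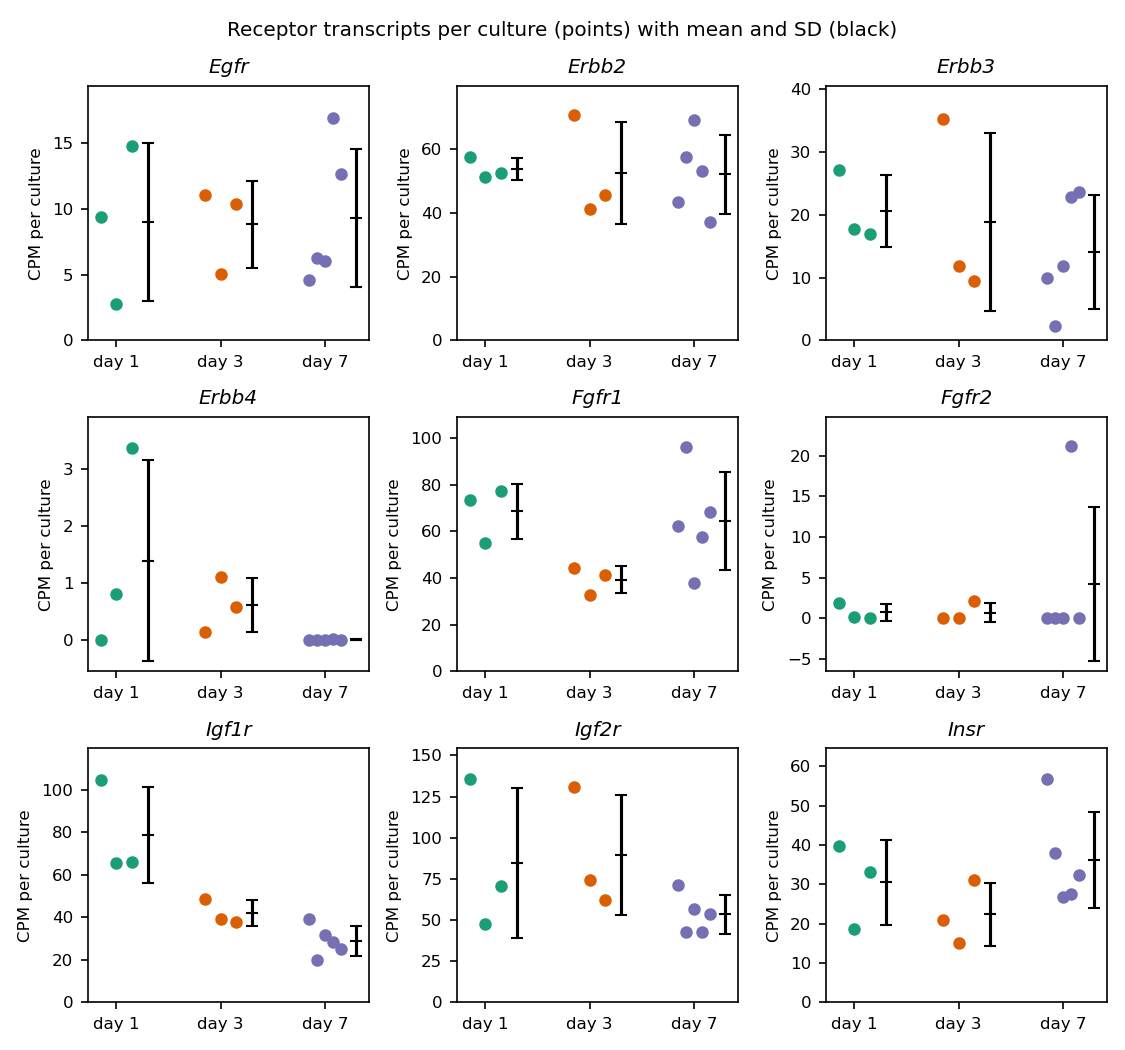
Counts per 1000000 reads (CPM, y axis, a separate scale in each panel) of the 9 receptor genes in each culture on days 1, 3 and 7 (x axis); points are cultures, and the black bar is the mean with the SD over 3, 3 and 5 cultures. Igf1r is lower in every day 7 culture than in any day 1 culture, and Fgfr2 is set by day 7 culture 4 at 21.2 CPM.

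Between days, 2 of the 9 receptors were called, Igf1r and Erbb4, both lower on day 7 than on day 1. The call of Erbb4, a gene of few reads, was lost in 10 of 22 alternative fits. For day 7 against day 1, 7.11% of the 17466 genes tested were called (Benjamini-Hochberg adjusted p under 0.05, edgeR quasi-likelihood test), and 3.56% were called lower. Between day 1 and day 3 none of the 9 receptors was called, beside 0.0115% of all genes, with 2 receptors at an unadjusted p under 0.05 beside 9.26% of all genes. Between day 3 and day 7 none was called, beside 0.968% of all genes, with 4 receptors at an unadjusted p under 0.05 beside 11.8% of all genes. From day 1 to day 7 the same 2 receptors had an unadjusted p under 0.05, beside 23.6% of all genes. DESeq2 called none of the 9 for day 3 against day 1 and Erbb4 for day 7 against day 3.

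The median log2 change of the 9 receptors was −0.13 from day 1 to day 3, −0.09 from day 1 to day 7 and −0.01 from day 3 to day 7. The medians over all genes tested were 0.02, 0.00 and 0.01. Cultures of both days did not overlap for Igf1r and Fgfr1 (2 of 9) between days 1 and 3, for Igf1r (1 of 9) between days 1 and 7 and for Erbb4 (1 of 9) between days 3 and 7. The shares of all genes without overlap were 18%, 17.8% and 8.13%, so these counts were near the background. The 3 comparisons share cultures with each other and are not independent.

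**Figure D2:**
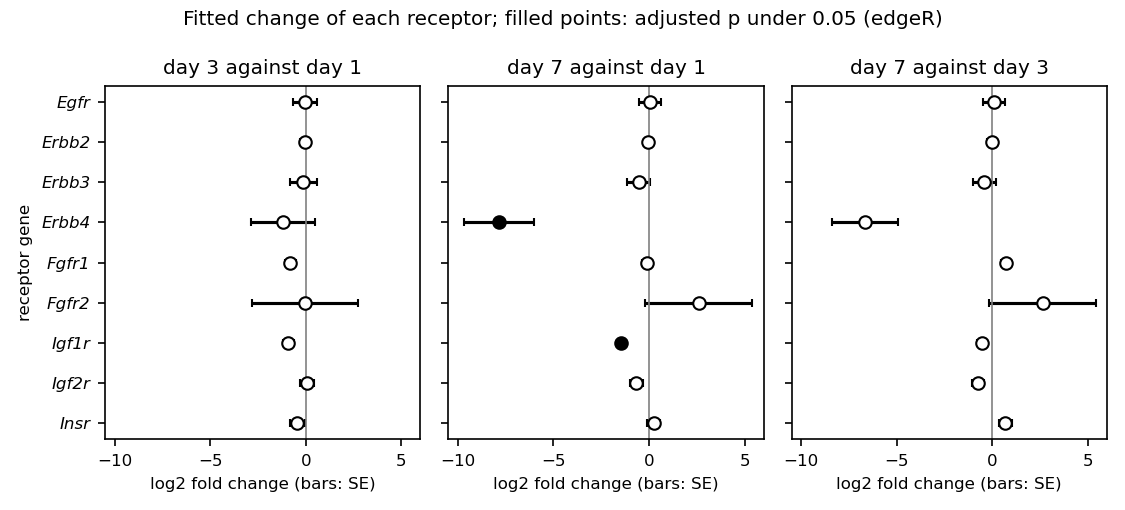
Fitted log2 fold change (x axis) of each receptor gene (y axis) in the 3 comparisons between days, with bars of 1 standard error (SE) from the edgeR fit over 11 cultures; filled points had an adjusted p under 0.05. The filled points are Igf1r and Erbb4 for day 7 against day 1, and the widest bars belong to Fgfr2 and Erbb4, which were read in 14 cells each.

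Igf1r, the receptor for the IGF1 of the medium, had the smallest p of the 9. Its CPM was 104.6, 65.4 and 66.2 in day 1 cultures 1 to 3. It was 48.9, 39.4 and 38.1 in day 3 cultures 1 to 3, and 39.2, 20.0, 31.6, 28.5 and 25.1 in day 7 cultures 1 to 5. All day 1 cultures lay above all others, and day 7 culture 1 lay within the range of day 3. From day 1 to day 7 Igf1r fell by 1.45 on the log2 scale (SE 0.242, edgeR adjusted p = 0.00565), or 2.73-fold. For day 3 against day 1 its log2 change was −0.90 (SE 0.278, adjusted p = 0.326, edgeR), and for day 7 against day 3 it was −0.54 (SE 0.244, adjusted p = 0.403, edgeR).

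The fall from day 1 to day 7 was called in 20 of 22 alternative fits, with log2 changes from −1.74 to −1.25 over the 22. The call was lost in 2 of them. With the second table alone, where day 7 was culture 5 only, the log2 change was −1.39 (edgeR adjusted p = 0.110). With cells not classed as cycling alone it was −1.74 (edgeR adjusted p = 0.0587), in a fit that called 1.19% of its genes in place of 7.11%. Leaving out each culture in turn kept the call, with edgeR adjusted p from 0.00581 to 0.0269.

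The share of cells with an Igf1r read and the reads per cell with one were described next. In summed reads, fewer cells with a transcript and less of it per cell cannot be told apart, so each cell with at least 200000 reads, 97.7% of those retained, was thinned to that number. On day 1, 92.3%, 84.7% and 86.8% of the cells of cultures 1 to 3 had an Igf1r read, and on day 3 the shares were 77.4%, 69.7% and 73.6%. On day 7 they were 71.8%, 45.9%, 69.6%, 53.8% and 46.7% in cultures 1 to 5. The day 1 cultures stood above all cultures of day 3 and day 7, and day 7 cultures 1 and 3 lay within or close to the range of day 3.

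The mean share was 87.95% ± 3.92 on day 1 and 57.6% ± 12.4 on day 7 (SD, n = 3 and 5), a difference of −30.4 percentage points (exact two-sided permutation test, p = 0.0357, adjusted p = 0.321 over 27 tests of 9 genes and 3 pairs of days). Without thinning the means were 89.2% and 67.6%. Among cells with an Igf1r read, the day 1 median was 14.8 ± 7.18 reads, that of day 3 was 7.83 ± 1.26 and that of day 7 was 7.30 ± 1.92 (means over cultures with their SD). Day 1 culture 1 was high at 23 reads, and the lowest day 1 culture and the highest day 7 culture were both at 9.50.

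**Figure D3:**
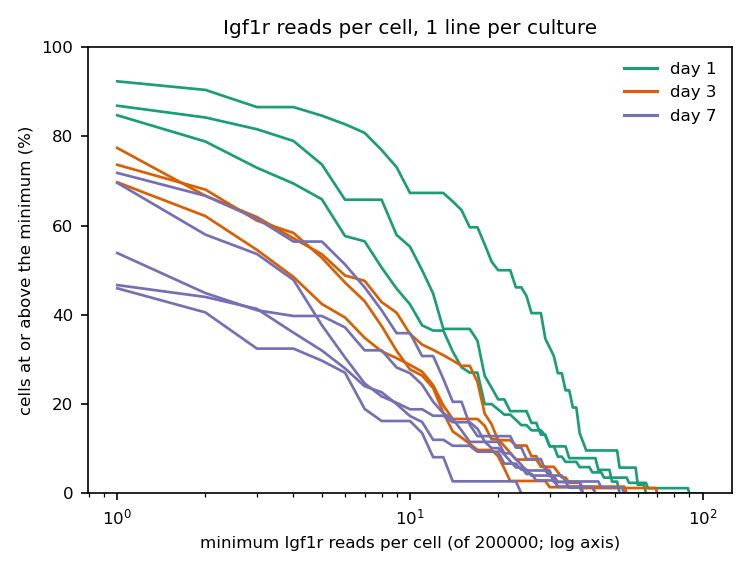
Percent of cells (y axis) with at least a given number of Igf1r reads per cell (x axis, log scale) after thinning to 200000 reads, with 1 line per culture, coloured by day. The 3 day 1 lines start between 84.7% and 92.3% at 1 read, above the 3 day 3 lines and the 5 day 7 lines, which start between 45.9% and 77.4%.

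Other measures moved between the same days. The summed CPM of 6 GER and tectorial membrane markers was 9065 to 13465 on day 1 and 1903 to 3789 on day 7. That of 4 epithelial markers was 2915 to 4973 and then 1566 to 2456, and that of 5 supporting cell markers was 278.9 to 357.96 and then 84.8 to 108.3. In day 1 culture 2 most of the GER sum was Tectb (11411 CPM). Tecta, Tectb, Otog, Sox2, Lgr5 and Slc1a3 were highest in a day 1 culture, Otoa in a day 3 culture, and Otogl, Fgfr3 and Prox1 in a day 7 culture. The part of the shifts in these sums, of the cycling share and of the table in the fall of Igf1r was not tested, apart from the fits given above. Within cultures Igf1r was at 41.2 ± 22.1 CPM in cycling and 46.1 ± 29.7 CPM in other cells (SD, n = 9 cultures; log2 difference −0.08, SE 0.238, edgeR adjusted p = 0.890).

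Insr, the insulin receptor, was called in no comparison of days. Its CPM was 39.7, 18.6 and 33.2 in day 1 cultures 1 to 3, 21.1, 15.2 and 31.1 in day 3 cultures 1 to 3, and 56.7, 38.04, 26.7, 27.5 and 32.3 in day 7 cultures 1 to 5. The days overlapped, and day 7 culture 1 was the highest. The log2 changes were −0.44 (SE 0.377) from day 1 to day 3, 0.25 (SE 0.339) from day 1 to day 7 and 0.69 (SE 0.344) from day 3 to day 7, with edgeR adjusted p of 0.805, 0.717 and 0.476. Its reads were found in 53.02%, 48.2% and 53.8% of cells on average on days 1, 3 and 7.

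Igf2r, the receptor that clears IGF2, was read in most cells, with mean shares of 91.1%, 92.2% and 81.9% on days 1, 3 and 7. Its CPM was 135.7, 47.6 and 70.6 in day 1 cultures 1 to 3, 130.95, 74.6 and 62.5 in day 3 cultures 1 to 3, and 71.3, 42.8, 56.96, 42.8 and 53.5 in day 7 cultures 1 to 5. Culture 1 of day 1 and culture 1 of day 3 stood well above the rest, and both are in the first table. The log2 change from day 1 to day 7 was −0.66 (SE 0.331, edgeR adjusted p = 0.246). With the table as a term it was −0.85 (edgeR adjusted p = 0.0956) and in the second table alone −0.14 (edgeR adjusted p = 0.909). Without day 1 culture 1 it was −0.20 (edgeR adjusted p = 0.790).

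Reads cannot be assigned to a strand in this method, and the antisense gene Airn, which overlaps Igf2r, held 13811 reads. The annotated exons of Airn and Igf2r share 0 bases.

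Fgfr1, a receptor for the FGF2 of the medium, was lowest on day 3. Its CPM was 73.4, 54.96 and 77.3 in day 1 cultures 1 to 3 and 44.1, 32.97 and 41.1 in day 3 cultures 1 to 3. It was 62.2, 96.0, 37.8, 57.7 and 68.5 in day 7 cultures 1 to 5. The day 3 cultures lay below every day 1 culture and below 4 of the 5 day 7 cultures; day 7 culture 3 was within the day 3 range. The log2 difference was −0.80 (SE 0.295) for day 3 against day 1 and 0.71 (SE 0.269) for day 7 against day 3. Neither passed the threshold (edgeR adjusted p = 0.444 and 0.294, unadjusted p = 0.0183 and 0.0208).

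The share of cells with an Fgfr1 read had the same order. It was 82.7%, 76.5% and 73.7% in day 1 cultures 1 to 3, 61.9%, 60.6% and 68.1% in day 3 cultures 1 to 3, and 79.5%, 72.97%, 69.6%, 73.1% and 74.7% in day 7 cultures 1 to 5. The day 3 cultures did not overlap with those of day 1 or day 7. The exact permutation p was 0.1 for day 3 against day 1, the smallest that 3 against 3 cultures can give, and 0.0179 for day 7 against day 3, the smallest that 3 against 5 can give, with adjusted p of 0.413 and 0.241. In 22 alternative fits each, the log2 difference of Fgfr1 ran from −0.93 to −0.68 for day 3 against day 1 and from 0.52 to 1.06 for day 7 against day 3, and none passed the threshold. Day 3 against day 1 and day 7 against day 3 use the same 3 day 3 cultures.

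From day 1 to day 7 Fgfr1 differed by −0.09 (log2, SE 0.261, edgeR adjusted p = 0.880), with an interval of 2 SE from −0.61 to 0.43. In cells not classed as cycling the sign turned, to 0.21 (edgeR adjusted p = 0.842).

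**Figure D4:**
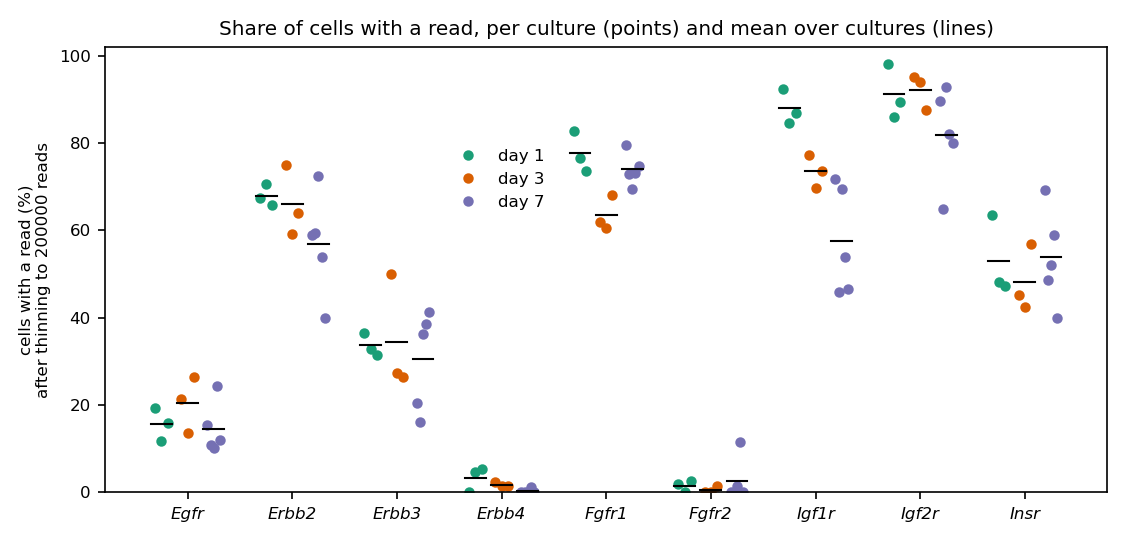
Percent of cells with at least 1 read of each receptor gene (y axis) after thinning to 200000 reads, per culture (points, coloured by day) with the mean over cultures (lines); genes are on the x axis. Igf1r steps down from 87.95% to 57.6% between day 1 and day 7, Fgfr1 is lowest on day 3 at 63.5%, and Erbb4 does not exceed 5.26% in any culture, and Fgfr2 reaches 11.5% in day 7 culture 4.

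Fgfr2, the other FGF receptor of the set, was carried by few cells. Fgfr2 was read in 14 cells (1.97% of those retained), and 9 of the 14 were in day 7 culture 4. That culture held 1440 of the 1625 Fgfr2 reads, or 21.2 CPM, and the other 4 day 7 cultures were between 0 and 0.0181 CPM. On day 1 Fgfr2 was read in 3 cells, with 64, 13 and 1 reads, and on day 3 in 1 cell. Its fitted changes therefore had wide errors, with a log2 change of 2.60 (SE 2.78, edgeR adjusted p = 0.629) from day 1 to day 7, which became −6.58 without day 7 culture 4 (edgeR adjusted p = 0.143).

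The 9 Fgfr2 cells of day 7 culture 4 had 72.7 to 576.6 CPM of it each, counted within the cell, with a median of 159.3. All 9 also had reads of Otoa, a gene of the attachment of the tectorial membrane to the GER surface (39.9 to 701.4 CPM), of Tecta (475.1 to 2265 CPM) and of Epcam (632.005 to 1547 CPM). Among all retained cells, 51.2% had reads of Otoa, 99.4% of Tecta and 99.7% of Epcam. Reads of the mesenchymal genes Pou3f4 and Tbx18 were at 0 in each of the 9 Fgfr2 cells. After thinning, 40 of the 78 cells of this culture had at least 10 Otoa reads, and 8 of these 40 had an Fgfr2 read. Otoa alone did not mark Fgfr2 cells: in the other 10 cultures none of the cells with at least 10 Otoa reads had an Fgfr2 read, although 35 to 39 such cells were found in day 1 culture 2 and in each day 3 culture. The single day 3 cell differed from these, with 132.3 CPM of Fgfr2, Epcam and Tecta at 0, 194.7 CPM of Pou3f4 and 388.1 CPM of Tbx18.

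**Figure D5:**
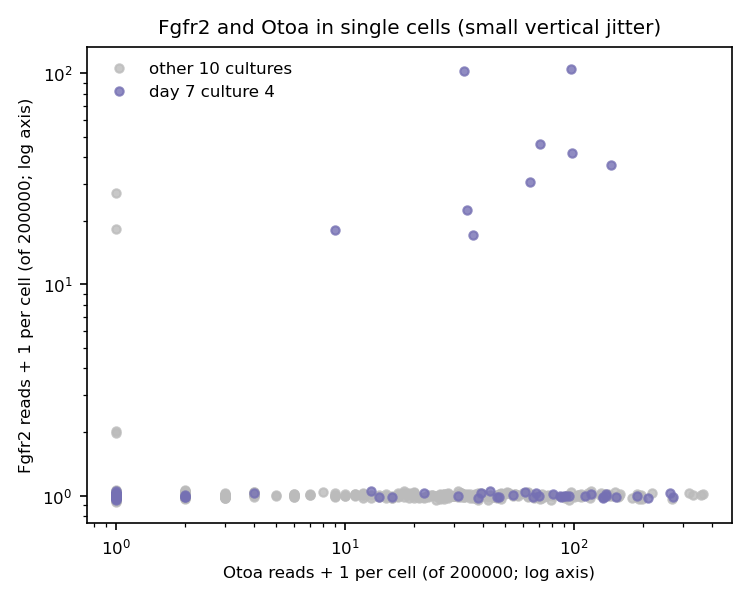
Fgfr2 reads plus 1 (y axis, log scale) against Otoa reads plus 1 (x axis, log scale) in each cell thinned to 200000 reads, with a small vertical jitter; day 7 culture 4 is in purple and the other 10 cultures in grey. The 9 purple points above the base line are the Fgfr2 cells of day 7 culture 4, and the grey cells with high Otoa lie on the base line, without an Fgfr2 read.

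The level of Fgfr2 depends on the annotated gene. GENCODE M21 (GRCm38) places Fgfr2 on the minus strand of chromosome 7 from 130162451 to 133123350, which includes long transcripts that run over many other genes and share exon bases with Ctbp2, while RefSeq ends the gene at 130266808. The tables give 1 count per gene, so the splice forms of Fgfr1 and Fgfr2, which differ in the FGFs they bind, and those of Insr were not resolved.

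Egfr, which binds the EGF of the medium, was read in a minority of cells and was called in no comparison. Its CPM was 9.35, 2.78 and 14.8 in day 1 cultures 1 to 3, 11.02, 5.02 and 10.3 in day 3 cultures 1 to 3, and 4.62, 6.24, 6.05, 16.8 and 12.6 in day 7 cultures 1 to 5. The 3 days overlapped throughout, and their means were 8.97, 8.80 and 9.28 CPM. The log2 change from day 1 to day 7 was 0.05 (SE 0.569, edgeR adjusted p = 0.972), with an interval of 2 SE from −1.08 to 1.19, so a difference of up to about 1 log2 unit either way was not detectable here. A single cell held 71% of the Egfr reads of day 7 culture 5. Shares of cells with an Egfr read ran from 10.1% to 26.4% over the 11 cultures.

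Erbb2, the partner receptor, was even across days. Its CPM was 57.6, 51.3 and 52.5 in day 1 cultures 1 to 3, 70.8, 41.3 and 45.5 in day 3 cultures 1 to 3, and 43.3, 57.3, 69.04, 53.1 and 37.3 in day 7 cultures 1 to 5. Means were 53.8, 52.5 and 52.005 CPM, and day 1 lay within the range of both later days. The log2 change from day 1 to day 7 was −0.05 (SE 0.239, edgeR adjusted p = 0.935), with an interval of 2 SE from −0.53 to 0.43, the narrowest of the 9. Its mean share of cells was 67.9% on day 1, 65.99% on day 3 and 56.9% on day 7, where day 7 culture 5 was lowest at 40%.

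Erbb3, the kinase-poor neuregulin receptor, varied widely between cultures of 1 day. Its CPM was 27.2, 17.7 and 16.9 in day 1 cultures 1 to 3, 35.2, 11.9 and 9.46 in day 3 cultures 1 to 3, and 10.0, 2.31, 11.8, 22.9 and 23.7 in day 7 cultures 1 to 5. Day 3 culture 1 was the highest and day 7 culture 2 the lowest, and the days overlapped. The log2 change from day 1 to day 7 was −0.54 (SE 0.609, edgeR adjusted p = 0.651). Erbb3 is known as a receptor of Schwann cells, but Foxd3 and Cdh19 were at 0 here, while Sox10, which the cochlear epithelium also expresses, was read in 89.3% of retained cells.

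Erbb4, the other neuregulin receptor, was read in 14 cells, 7 on day 1, 6 on day 3 and 1 on day 7. Its reads per culture were 0, 51 and 89 in day 1 cultures 1 to 3 and 9, 56 and 30 in day 3 cultures 1 to 3. On day 7 it had 1 read, in culture 4, and 0 in the other 4 cultures. Erbb4 therefore passed the filter on low counts through its reads of days 1 and 3 alone, the days on which it was higher. Day 1 culture 1 overlapped with day 7 at 0, and 1 cell held 76 of the 89 reads of day 1 culture 3. From day 1 to day 7 the fitted log2 change was −7.85 (SE 1.81, edgeR adjusted p = 0.0239). The ratio of its read totals, 140 on day 1 and 1 on day 7, was 294.1 after scaling for depth, with an exact 95% counting interval from 51.9 to 11699 that covers counting error only.

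The call of Erbb4 was lost in 10 of 22 alternative fits, among them those without day 1 culture 2 (edgeR adjusted p = 0.0516), day 1 culture 3 (0.0934), day 7 culture 3 (0.0527) or day 7 culture 4 (0.0613), that with the table as a term (0.203) and that on cells not classed as cycling (0.150). In shares of cells, Erbb4 went from 3.32% ± 2.89 on day 1 to 0.256% ± 0.573 on day 7 (SD, n = 3 and 5; exact permutation test, p = 0.107, adjusted p = 0.413). All 14 Erbb4 cells had reads of Tecta and Epcam, and 13 had reads of Otoa and of Lgr5, a supporting cell gene. Among all retained cells, 99.4% had reads of Tecta, 99.7% of Epcam, 51.2% of Otoa and 54.6% of Lgr5, so the first 2 genes do not set Erbb4 cells apart. The shares of Otoa and Lgr5 are not matched by day, and all Erbb4 cells but 1 were from days 1 and 3. At least 10 Otoa reads were found in 46.4% to 56.1% of thinned cells on day 3. On day 7 this was 51.3% in culture 4 and 0% to 16% in the other cultures. Whether Otoa or Lgr5 sets Erbb4 cells apart from other cells of their day was not tested. For comparison with genes that these cells should lack, Ptprc, an immune gene, was read in 1 thinned cell (0.144%, exact 95% interval 0.00364% to 0.799%), and Pecam1, Dct, Mlana and Foxd3 in none, which allows up to 0.529%. The mean Erbb4 share of day 7 lay within these limits, and those of days 1 and 3 lay above them.

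Cells rarely had reads of a receptor for all 3 growth factors. With Egfr, with Fgfr1 or Fgfr2, and with Igf1r required at once, 66 thinned cells (9.50%) qualified. Reads of an FGF2 and an IGF1 receptor without Egfr were found in 42.6% of thinned cells, and 59 cells (8.49%) had none of the 3 kinds. The median cell had reads of 4 of the 9 genes, no cell had all 9, and 6 cells had none.

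The share of cells with all 3 kinds was 13.5%, 8.24% and 13.2% in day 1 cultures 1 to 3, 11.9%, 7.58% and 18.1% in day 3 cultures 1 to 3, and 12.8%, 2.70%, 4.35%, 11.5% and 1.33% in day 7 cultures 1 to 5. The days overlapped. The mean was 11.6% on day 1 and 6.55% on day 7, a difference of −5.07 percentage points that did not pass the exact permutation test (p = 0.179, adjusted p = 0.268 over 3 pairs of days). A missing read in a thinned cell is not a missing transcript, and these shares are lower limits on cells with each receptor. Erbb2 was read in 71.8% of the cells with an Egfr read and in 60.7% of those without, and the first share was the higher in 8 of 11 cultures. This was not particular to that pair. Erbb2 was read in 70.6% of cells with an Erbb3 read and in 58.4% of those without (higher in 9 of 11 cultures). For Fgfr1 with Egfr the shares were 72.6% and 71.1% (higher in 7 of 11), and for Igf1r with Igf2r 71.6% and 58.8% (higher in 5 of 11).

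Cycling and other cells were compared within 9 cultures that held at least 10 cells of each class, which left out day 1 culture 3 and day 7 culture 3. None of the 7 receptors tested was called, beside 11.3% of the 13434 genes tested; Fgfr2 and Erbb4 did not pass the filter there. The largest difference relative to its error was that of Insr, at 23.3 ± 9.19 CPM in cycling and 39.5 ± 26.4 CPM in other cells (SD, n = 9), lower in cycling cells in 7 of the 9 cultures. Its log2 difference was −0.66 (SE 0.251, edgeR adjusted p = 0.126), and DESeq2 called it at an adjusted p of 0.0480. Fgfr1 differed by −0.38 (SE 0.173, edgeR adjusted p = 0.202) and Igf2r by −0.71 (SE 0.348, edgeR adjusted p = 0.248).

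The genes around the receptors were read from 9 lists of ligands, binding proteins, co-receptors, adaptors, cascade members and inhibitors, of which all but 19 genes were tested. From day 1 to day 7, 5 were called higher and 11 lower, together 13.8% of those tested beside 7.11% of all genes. In cells not classed as cycling only Il17rd was called (0.901% of the list genes tested there, beside 1.19% of all genes), and the other 15 calls were lost. In the second table alone 5 list genes were called (4.24%, beside 0.656% of all genes). For day 3 against day 1 none was called and for day 7 against day 3 only Fgf8, by edgeR.

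Among the ligands, 1 of 7 EGF-family genes tested was called. Hbegf, which encodes a heparin-binding ligand of EGFR and ERBB4, went from 35.4 ± 3.87 CPM on day 1 to 14.3 ± 3.38 CPM on day 7 (SD, n = 3 and 5; log2 −1.30, edgeR adjusted p = 0.00880). Areg, the amphiregulin gene, was at 2.80 ± 4.70 CPM on day 1, from 4 cells, and at 0.0108 ± 0.0242 CPM on day 7, and did not pass (edgeR adjusted p = 0.0523), though it did without the low count filter (0.0488) and without day 1 culture 3 (0.0472). Both insulin-family ligands tested were called lower. Igf1, the gene for the IGF1R ligand, fell from 4.30 ± 2.46 CPM on day 1, with reads in 20 cells, to 0.0927 ± 0.0617 CPM on day 7, with reads in 9 cells, a depth-scaled ratio of 57.2 (exact 95% counting interval 37.8 to 90.9; edgeR adjusted p = 0.00636). Igf2, which encodes a ligand of IGF1R and IGF2R, fell from 69.1 ± 14.1 to 8.21 ± 7.95 CPM (log2 −3.08, edgeR adjusted p = 0.0118).

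Of 14 FGF genes tested, Fgf21, a gene of an endocrine FGF, was called higher on day 7, with 0 reads on day 1 and 1.02 ± 1.00 CPM from 10 cells on day 7, at least 53.5-fold higher against a floor of 3 reads over day 1. Its call (edgeR adjusted p = 0.0407) was lost on leaving out any one culture except day 7 culture 1 or 2, with edgeR adjusted p up to 0.116. Fgf8, which inner hair cells are known to express, had 41 reads on day 1, 1035 reads in 8 cells on day 3 and 2 reads on day 7. Its edgeR adjusted p from day 3 to day 7 was 0.0426, lost without any one culture other than day 1 culture 1 or 3 or day 3 culture 1, with edgeR adjusted p up to 0.168. Hair cell markers moved with it, with a summed CPM of 5 genes of 10.4 to 89.5 on day 3 and 0 to 4.11 on day 7, and their part was not tested.

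Igfbp3, an IGF-binding protein gene, was the only one of 6 such genes called by edgeR, and fell from 668.03 ± 100.5 to 244.1 ± 49.8 CPM (log2 −1.45, edgeR adjusted p = 0.00174). In cells not classed as cycling its log2 change was −0.72 (edgeR adjusted p = 0.285). Igfbp6 had a log2 change of −3.13 that did not pass in edgeR (adjusted p = 0.151) and did in DESeq2 (0.0487) and limma (0.00258). Of 13 other receptors and heparan sulfate co-receptors, the proteoglycan genes Sdc2 (202.7 to 91.2 CPM), Gpc4 (166.6 to 77.5 CPM) and Sdc3 (82.5 to 20.97 CPM) fell and Gpc3 rose (87.8 to 280.6 CPM), with edgeR adjusted p of 0.00479, 0.00776, 0.00853 and 0.0134. Gpc3 did not pass when day 1 culture 1 or culture 2 was left out (edgeR adjusted p = 0.0581 and 0.0576).

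Inside the cell, no gene of 16 adaptors or of 14 members of the RAS-ERK cascade was called by the edgeR fit over all cultures with TMM scaling. The adaptor genes Sos1 and Shc4 had log2 changes of −1.04 and −1.22 (edgeR adjusted p = 0.0549 and 0.10), and the kinase gene Mapk3 a change of −0.84 (0.127). Sos1 was called by edgeR with RLE scaling (adjusted p = 0.0448) and without day 7 culture 3 (0.0409), and DESeq2 called Sos1 (0.00944) and Shc4 (0.0234). Of 21 genes of the PI3K-AKT branch, Akt1, a kinase, and Pik3r3, a regulatory subunit, fell, from 51.2 ± 11.4 to 26.9 ± 3.34 CPM and from 52.2 ± 6.09 to 18.9 ± 7.501 CPM (edgeR adjusted p = 0.0222 and 0.0228). Akt1 did not pass when day 1 culture 1 or 3 was left out (edgeR adjusted p = 0.0856 and 0.0900), nor Pik3r3 when any 1 of the 3 day 1 cultures was (0.0541 to 0.0749). In cells not classed as cycling Pik3r3 was at −0.66 (log2, edgeR adjusted p = 0.741).

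Of 23 inhibitors of the receptors, 3 were called higher and 2 lower. Spry1, a feedback inhibitor of the FGF and RAS pathway, had the smallest p of the lists and rose from 41.04 ± 2.66 to 153.1 ± 23.7 CPM (log2 1.90, SE 0.187, edgeR adjusted p = 0.000379). Il17rd, an inhibitor of FGF signalling also named Sef, rose from 16.7 ± 3.88 to 52.5 ± 13.6 CPM (log2 1.65, edgeR adjusted p = 0.00691). Spred3 fell from 17.05 ± 1.16 to 3.74 ± 1.71 CPM (edgeR adjusted p = 0.00816), and Socs2, a suppressor of cytokine signalling, from 185.4 ± 72.4 to 77.5 ± 29.8 CPM (edgeR adjusted p = 0.0461). The Socs2 call was lost on leaving out any one of 7 cultures (day 1 cultures 2 and 3, day 3 cultures 2 and 3, day 7 cultures 2 to 4), with edgeR adjusted p up to 0.158. Spry3 had 0 reads on day 1 and 1.78 ± 2.14 CPM from 9 cells on day 7, at least 81.7-fold higher against the floor of 3 reads; its call (edgeR adjusted p = 0.0485) was lost without any one culture except day 7 culture 1 or 3, with edgeR adjusted p up to 0.135.

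Across the 11 cultures, the genes most like each receptor in log2 CPM were described among 8809 genes with a mean of at least 10 CPM, leaving out predicted genes. These correlations share day, table and depth and are descriptions only. Igf1r was most like Slco5a1 and Reep3 (Pearson r = 0.947 for both, n = 11 cultures), and 21 genes had r above 0.9 with it. Egfr was most like Vps39 and Arel1 (r = 0.957 and 0.826), Erbb2 like Fam160b2 and Kmt2d (0.898 and 0.896) and Erbb3 like Rbl2 and Sft2d2 (0.965 and 0.957). Fgfr1 was most like Hdac11 and Cyp4f16 (0.877 and 0.867), Igf2r like Fn1 and Prkar2a (0.912 and 0.911) and Insr like Zmiz1 and Hnrnpul1 (0.924 and 0.908). For Erbb4 the values were 0.920 and 0.919 (Capzb, Elob) and for Fgfr2 0.800 and 0.793 (G6pdx, Galnt2), both resting on few cells.

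Gene positions were read from GENCODE M21 on GRCm38 by the identifiers of the tables. Egfr (ENSMUSG00000020122.16) and Erbb2 (ENSMUSG00000062312.5) lie on chromosome 11, at 16752203 to 16918158 and 98412470 to 98437716, both on the plus strand. Erbb3 (ENSMUSG00000018166.8) lies on chromosome 10 at 128567523 to 128589652 and Erbb4 (ENSMUSG00000062209.15) on chromosome 1 at 68032186 to 69108059, both on the minus strand. Fgfr1 (ENSMUSG00000031565.18) is on chromosome 8 at 25513654 to 25575718 on the plus strand, and Insr (ENSMUSG00000005534.10) on the same chromosome at 3122061 to 3279617 on the minus strand. Igf1r (ENSMUSG00000005533.10) is on the plus strand of chromosome 7 at 67952827 to 68233668. Igf2r (ENSMUSG00000023830.13), whose version differs from that of GENCODE M21, is on the minus strand of chromosome 17 at 12682406 to 12769664. Counts cover all annotated exons of each gene, untranslated regions included.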

How the data were processed

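Libraries were SmartSeq2, aligned and quantified with STAR 2.5.3a and RSEM 1.3.0 on mm10 (GRCm38), as far as the submitters' processing notes name them; the annotation release is not given in the sources used here. Values deposited by the authors are RSEM expected counts without normalisation, 1 column per cell, in 2 tables; 10.6% of the values above 0 were not whole. Expected counts were rounded per cell. Cells with at least 50000 reads, 1500 genes and at most 20% mitochondrial reads were kept and their counts summed per culture. The fit was edgeR 4.0.16 (R 4.3.3; TMM scaling, its default filter for groups of the same day, and a single quasi-likelihood model of the 11 cultures on day alone); genes were called at a Benjamini-Hochberg adjusted p under 0.05 over 17466 genes. The edgeR code was tested on simulated data. Shares of cells used cells thinned to 200000 reads and exact two-sided permutation tests over cultures (scipy 1.17.1). DESeq2 1.42.0, limma 3.58.1 and the other alternatives are given at the end. The 9 receptors, the gene lists and the markers were chosen with earlier results of these data known. From each list the 2 tested genes with the smallest unadjusted p for day 7 against day 1 were named, with every gene called; the latter were chosen after their values were seen. Of the genes this rule names, 1 is not reported here. Because PCR copies of 1 molecule cannot be recognised, every interval and floor covers counting error alone. Replicate numbers were not used to pair cultures, because no pair of same-numbered cultures had deviations correlated above 0.1 (−0.010 to 0.061). All of these but day 3 culture 3 with day 7 culture 3 were above 0, and pairs with other numbers ran from −0.0851 to 0.0716. Values this low do not settle whether same-numbered cultures are linked, and the labels do not say so.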

Additional observations from a re-analysis of the deposited data

Results flagged for a closer look

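Among 18 sets of 5 day 7 cultures (the CPM and the share of cells of each receptor), 4 had 1 culture far from the others by Dixon's test, and it was day 7 culture 4 in each. The CPM and the share of a gene rest on the same reads, and with the other 4 cultures at 0 a single read is enough, so the usual rate of about 1 in 20 by chance does not apply to these sets. Fgfr2 was at 21.2 CPM there against 0 to 0.0181 CPM in the other 4 cultures, and 11.5% of its cells had an Fgfr2 read against 0 to 1.45%. Erbb4 was at 0.0147 CPM there and at 0 in the other 4 cultures, and 1.28% of its cells had an Erbb4 read, which is 1 read in 1 cell. Day 7 culture 4 also had the highest Otoa level of the day 7 cultures, 202.4 CPM against 0.929 to 40.01 CPM.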

How the results depend on the processing

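Shares of tested genes that were called moved most. Between days 1 and 3 the share was 0.0115% as reported, 1.48% with DESeq2, 0.395% with limma, 0.0495% without the low count filter, 0.0945% in the second table alone and 0.00651% in cells not classed as cycling. Between days 1 and 7 it was 7.11%, then 13.3% with DESeq2, 1.19% in cells not classed as cycling and 0.656% in the second table alone. Between days 3 and 7 it was 0.968%, then 3.66% with DESeq2, 0.584% with the table as a term, 0.527% in cells not classed as cycling and 0.105% in the second table alone. Leaving out 1 culture gave 0% to 0.0288%, 2.39% to 8.02% and 0.189% to 1.01%. The share fell by over 1.5 times without day 1 culture 1, 2 or 3 or day 7 culture 3 in the second of these comparisons, and without day 1 culture 2 or 3, any day 3 culture or day 7 culture 1 or 2 in the last. For cycling against other cells it was 11.3%, 19.03% with DESeq2 and 8.40% to 10.8% without 1 culture. The fits on cells not classed as cycling, on cells with Epcam or Cdh1 and on cultures 1 to 3 without the block were added after seeing the data. Fits of the second table alone and those leaving an arm with 1 culture assume that it varies like the other groups.

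With replicate number as a block on cultures 1 to 3, the shares were 0.0472%, 5.997% and 0.584%, against 0.0236%, 5.42% and 0.749% for the same cultures without the block. Erbb4 was not called from day 1 to day 7 in either. Whether the numbers pair the cultures is not known.

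The called fall of Igf1r kept its direction in all 22 fits. Signs turned only for uncalled values, as log2 changes. Between days 1 and 3 these were Egfr with limma (0.22), the block (0.041) or cells not cycling (0.0049), Erbb2 and Erbb3 in cells not cycling (0.016 and 0.074), Erbb4 with the block (0.16), Igf2r with DESeq2 or RLE scaling (−0.0041 and −0.0040), and Fgfr2 with the table as a term (2.35), in the second table (2.99) or in cells not cycling (0.57). Between days 1 and 7 they were Egfr with DESeq2 or RLE (both −0.027), all cells (−0.0097), the block (−0.44) or its cultures without it (−0.73), Erbb2 with limma (0.039), the block (0.022) or its cultures without it (0.011), Erbb3 in the second table (0.46), Fgfr1 there (0.055) or in cells not cycling (0.21), and Fgfr2 in the second table (−5.78), with the block (−9.25) or its cultures without it (−6.20). Between days 3 and 7 they were Egfr with limma (−0.14), the block (−0.49) or its cultures without it (−0.65), Erbb2 likewise (0.077, 0.13 and 0.11), Erbb3 in the second table (1.17) and Fgfr2 with the table as a term (−1.07), in the second table (−8.77), with the block (−5.10) or its cultures without it (−6.10). Igf1r in cycling cells turned to 0.059 with cycling set at 2 genes.

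Without 1 culture, ranges that crossed 0 for day 3 against day 1 were −0.45 to 0.54 (Egfr), −0.34 to 0.12 (Erbb2), −0.98 to 0.20 (Erbb3), −1.93 to 0.58 (Erbb4), −8.13 to 2.34 (Fgfr2) and −0.33 to 0.55 (Igf2r). Between days 1 and 7 they were −0.37 to 0.62 (Egfr), −0.23 to 0.050 (Erbb2), −0.28 to 0.0093 (Fgfr1), −6.58 to 4.95 (Fgfr2) and −0.0054 to 0.43 (Insr). Between days 3 and 7 they were −0.25 to 0.25 (Egfr), −0.16 to 0.23 (Erbb2), −0.73 to 0.39 (Erbb3) and −6.50 to 10.74 (Fgfr2), and in cycling cells −0.068 to 0.054 (Erbb2) and −0.25 to 0.092 (Igf1r). In percentage points, the share with all 3 kinds of receptor, day 3 against day 1, was 0.894 as reported, −1.87 at a minimum of 5 reads and −1.88 to 3.36 without 1 culture, and that of Erbb4 was 0.0908 at 5 reads. The order of levels kept 3 of 9 places with the longest transcript. For values outside a named construction the cause was not tested.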

Other observations

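The Fgfr2 cells of day 7 culture 4 were compared with the other 69 thinned cells of that culture, as a description made after the values were seen. Hmx3, a homeobox gene known for its part in the vestibular inner ear, was read in 7 of the 9 Fgfr2 cells and in 24.6% of the other 69. It was read in 1.297% of the cells of the other 10 cultures. Hmx2, its neighbour on chromosome 7 with a like role, was read in 44.4%, 7.25% and 0.324% of the same cells. Both genes were highest in culture 4 over all cultures, at 7.89 CPM for Hmx3 (0 to 0.632 in the others) and 2.81 CPM for Hmx2 (0 to 1.91 in the others). Both lie inside the long GENCODE M21 span of Fgfr2 (131542867 to 131544925 and 131548773 to 131558014), on the other strand and with 0 shared exon bases. The part of that overlap in the Fgfr2 reads was not tested.

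Among all genes, those with the widest gap in the share of cells between the 9 Fgfr2 cells and the other 69 were led by Wnk2, a kinase gene (77.8% against 13.04%), Hs3st3b1, which encodes a heparan sulfate sulfotransferase (88.9% against 26.1%), and Mgll, a lipase gene (77.8% against 15.9%). With 9 cells of 1 culture these are values without a test.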
